A study of Mus musculus with 2 samples.

Results

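The 8 transcription factors of the macrophage and monocyte lineage described here are Spi1 (which encodes PU.1), Irf8, Cebpa, Cebpb, Klf4, Nr4a1, Maf and Zeb2. They were chosen by symbol, as genes known to act in macrophages and monocytes, from the 32285 genes of a single-cell expression matrix of mouse aortic colonies, and all 8 were present in it. Their levels were compared between the macrophages, mast cells and fibroblasts of the same library.

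As background, PU.1 is an ETS-family factor that opens the enhancers of myeloid genes, and its amount steers progenitors between myeloid fates. It binds many of these enhancers together with C/EBP factors, and at composite ETS-IRF elements with IRF8, which directs progenitors to monocytes and dendritic cells. KLF4 and the nuclear receptor NR4A1 act in monocytes, while MAF and ZEB2 maintain genes of resident tissue macrophages. Several of the 8 have roles elsewhere: PU.1 is also needed by mast cells, C/EBP factors act in fat cell differentiation, and KLF4 and NR4A1 are induced quickly by stimuli in many cell types.

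The aortas came from 2 male C57BL/6J mice aged 12 weeks, whose cells are not told apart in the matrix. After digestion with Liberase, the cells grew in methylcellulose for 14 days, and colonies of the type called colony-forming unit-macrophage (CFU-M) were harvested, sorted for viability with DAPI, labelled with lipid-anchored oligonucleotide tags and sequenced as 1 droplet library. The 3 tags are named Cafum, Matrigel and Macrophages in the matrix, and what the names stand for is not given in the sources used here. No animal, treatment or replicate can be compared, so there is no test across samples: every comparison is between cell classes of 1 library, and the 95% intervals (exact Poisson for levels, exact Clopper-Pearson for shares, exact conditional binomial for ratios) cover counting error only.

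Levels are given as counts of unique molecular identifiers (UMIs, each a counted RNA molecule) per 1000000 UMIs of the class, written CPM. Of 34813 barcodes, 29285 were kept, with a median of 12485 UMIs per cell. They fell into 13 clusters, found without the 8 factors and without the listed marker genes. One cluster of 2530 cells passed 7 of 8 macrophage markers (Csf1r, Adgre1, C1qa, C1qb, C1qc, Mrc1 and Cd68, while Fcgr1 stood at 45.4 CPM, under the minimum of 50) and is called macrophage-like. A group of 6 clusters with 17105 cells, of which 4 passed all 7 mast cell markers and clusters 7 and 8 passed 6, is called mast cell-like, and 1 cluster of 5100 cells passed all 6 fibroblast markers and is called fibroblast-like. The labels name the cells CFU-M progenitors, and 8.64% of the cells kept were macrophage-like while 58.4% were mast cell-like. Median depth was 8426 UMIs in macrophage-like, 12216 in mast cell-like and 31012 in fibroblast-like cells, and the median mitochondrial share was 4.29%, 2.22% and 0.932%. The part of depth and RNA quality in the differences between classes was not tested.

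Mast cell RNA was present in every class. The 7 mast cell markers (Cma1, Cpa3, Fcer1a, Ms4a2, Hdc, Tpsb2, Mcpt4) were found in macrophage-like cells at 0.282 to 0.356 of their mast cell-like level, and in fibroblast-like cells at 0.125 to 0.145 of it. In the other direction, mast cell-like cells held the 8 macrophage markers at 0.00279 to 0.0179 of the macrophage-like level, and fibroblast-like cells held them at 0.00512 to 0.0264. A member whose level in a class lies within these ranges is read as background there, which means that it was not told apart from background. The top of both macrophage marker ranges was Cd68. The median marker ratio was 0.00518 in mast cell-like and 0.00786 in fibroblast-like cells. Part of the macrophage-like class held more mast cell RNA than the rest: subcluster 2, with 660 of the 2530 cells, had summed mast cell markers of 39493 CPM, and 71.7% of its cells carried more than 1 tag. Member levels are therefore also given without it.

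RefSeq promoters (build GRCm38.p6) were matched for 6 of the 8 members, giving 10 start sites, and 4 are printed for the 3 members with the lowest mast cell-like share of the macrophage-like level (Irf8, Cebpa, Klf4) and for the one found in most cells of every class (Zeb2). Each is the 250 bases before the start, 5′ to 3′ on the gene's strand, with the matches to the searched motifs in capitals.
Irf8, chr8:120736108-120736357, plus strand: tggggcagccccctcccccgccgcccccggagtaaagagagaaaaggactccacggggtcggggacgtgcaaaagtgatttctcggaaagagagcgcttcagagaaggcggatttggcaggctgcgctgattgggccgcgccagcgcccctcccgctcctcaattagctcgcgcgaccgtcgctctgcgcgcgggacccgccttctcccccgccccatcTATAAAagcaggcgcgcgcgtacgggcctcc
Cebpa, chr7:35119043-35119292, plus strand: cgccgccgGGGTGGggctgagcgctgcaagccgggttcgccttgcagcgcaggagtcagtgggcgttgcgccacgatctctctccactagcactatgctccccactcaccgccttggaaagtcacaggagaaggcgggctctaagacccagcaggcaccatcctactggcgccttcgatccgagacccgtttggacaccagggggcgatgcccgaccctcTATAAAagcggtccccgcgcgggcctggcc
Klf4, chr4:55532476-55532725, minus strand: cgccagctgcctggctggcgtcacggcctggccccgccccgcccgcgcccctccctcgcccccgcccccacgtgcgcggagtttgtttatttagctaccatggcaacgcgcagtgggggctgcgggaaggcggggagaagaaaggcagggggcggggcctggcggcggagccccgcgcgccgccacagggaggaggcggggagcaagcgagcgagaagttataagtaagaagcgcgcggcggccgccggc
Zeb2, chr2:45117443-45117692, minus strand: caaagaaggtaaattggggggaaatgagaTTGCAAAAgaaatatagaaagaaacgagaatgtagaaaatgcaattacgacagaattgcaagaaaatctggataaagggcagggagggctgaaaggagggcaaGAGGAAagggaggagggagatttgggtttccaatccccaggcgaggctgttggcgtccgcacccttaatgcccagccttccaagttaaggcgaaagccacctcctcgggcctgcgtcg
The motifs, searched on both strands, were GAGGAA for PU.1, GGAANNGAA for ETS-IRF, TTGCNNAA for C/EBP, CCACCC for KLF, AAAGGTCA for NR4A, CACCTG for ZEB and TGCTGA for MAF, and TATAAA was added after the sequences were seen. Zeb2 held GAGGAA before all 4 of its listed starts, of which the second and the third overlap and share 1 match, and TTGCAAAA, a C/EBP match, before the first. GAGGAA occurs in 23.3% and TTGCNNAA in 9.56% of the 32851 promoters in the table over the same length. Irf8 and Cebpa shared a TATAAA at 31 and 30 bases before the start, which 12.4% of all promoters hold somewhere in the window. The CCACCC motif was found, on the opposite strand as GGGTGG, before Cebpa, before Cebpb and before 1 start of Zeb2, and 28.1% of all promoters hold it. The second start of Irf8 had 1 match each to CACCTG and TGCTGA, which 17.2% and 16.1% of promoters hold, and no member promoter held the ETS-IRF or the NR4A letters, which 6.99% and 1.34% hold. The GC content of the printed stretches was 67.2% for Irf8, 66.4% for Cebpa, 74.0% for Klf4 and 49.6% for Zeb2, against a median of 52.4% over the table. A match is a run of letters, not a binding site, and no binding data were analysed.

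All 8 members were higher in macrophage-like than in mast cell-like cells by 2-fold or more, and none was lower. Of the 18035 genes with at least 20 UMIs over both classes, 21.8% were higher by that fold and 16.1% lower, and the median log2 ratio was 5.38 for the members and -0.12 for all these genes. Against fibroblast-like cells 7 of the 8 were higher, all but Nr4a1, where 17.9% of 19149 genes were higher, and none was lower, where 27.9% of genes were. Mast cell-like cells exceeded fibroblast-like cells in 1 member, Spi1 (16.8% of 20009 genes), and were 2-fold or more below them in 6, namely Irf8, Maf, Cebpa, Cebpb, Klf4 and Nr4a1 (34.1% of genes). For Irf8 this compares 2 levels read as background, and nothing is read from it. The members were picked as macrophage factors, so these counts are not independent of the class. The plot of levels by class shows that the distance between the classes differs widely among the 8.

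**Figure D1:**
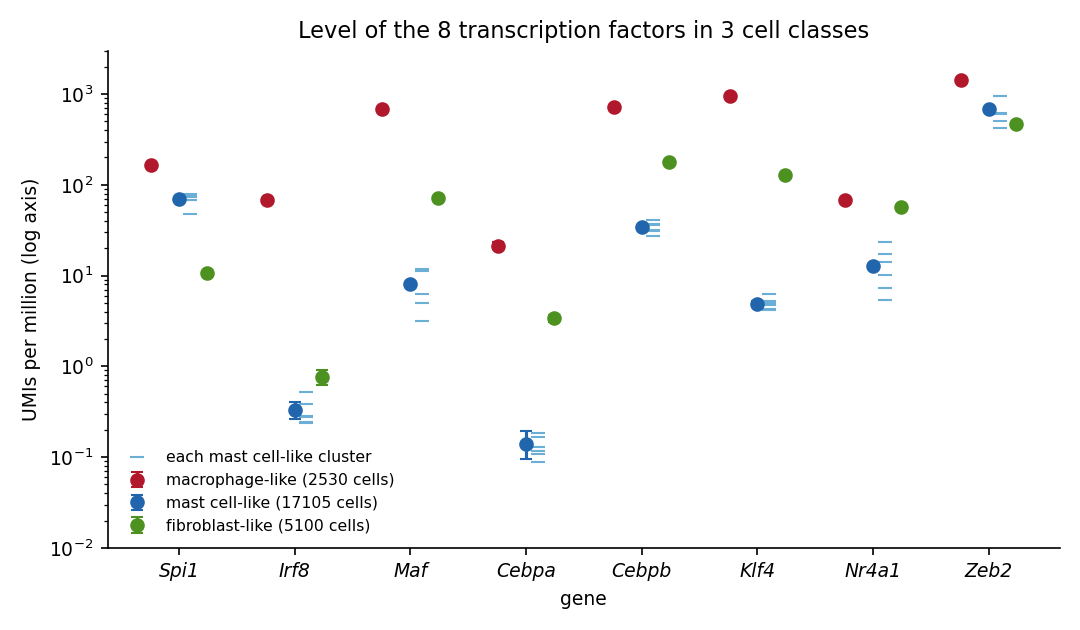
Level of each of the 8 transcription factors in CPM (log axis) in the macrophage-like, mast cell-like and fibroblast-like cells. Large points are the summed class with its exact Poisson 95% interval (often smaller than the point) and short bars are the 6 mast cell-like clusters. Irf8, Cebpa, Klf4 and Maf lie far below the macrophage-like level in every mast cell-like cluster, while Zeb2 stays within about 1 axis decade in all 3 classes.

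Shares of cells with a UMI were compared after thinning every cell to 5500 UMIs, which left out 553 macrophage-like, 1073 mast cell-like and 187 fibroblast-like cells that were shallower. At that depth a macrophage-like cell held UMIs of a median of 5 of the 8 factors, a fibroblast-like cell of 2 and a mast cell-like cell of 1. At least 5 of the 8 were found in 56.6% of 1977 macrophage-like cells, in 2.30% of 4913 fibroblast-like cells and in 0.0374% of 16032 mast cell-like cells. All 8 together were found in 14 macrophage-like cells, while the most in 1 cell was 6 among fibroblast-like and 5 among mast cell-like cells. Unthinned shares were raised most in the deeper fibroblast-like cells, where Klf4 was found in 69.1% of cells, Maf in 57.1%, Nr4a1 in 55.5%, Spi1 in 22.5%, Cebpa in 9.49% and Irf8 in 2.04%. The unthinned shares of these 6 were 83.2%, 91.5%, 33.4%, 72.6%, 17.4% and 40.2% in macrophage-like cells and 6.50%, 9.28%, 13.9%, 58.3%, 0.193% and 0.438% in mast cell-like cells. So Nr4a1 was found in more fibroblast-like than macrophage-like cells before thinning and in like shares after it.

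**Figure D2:**
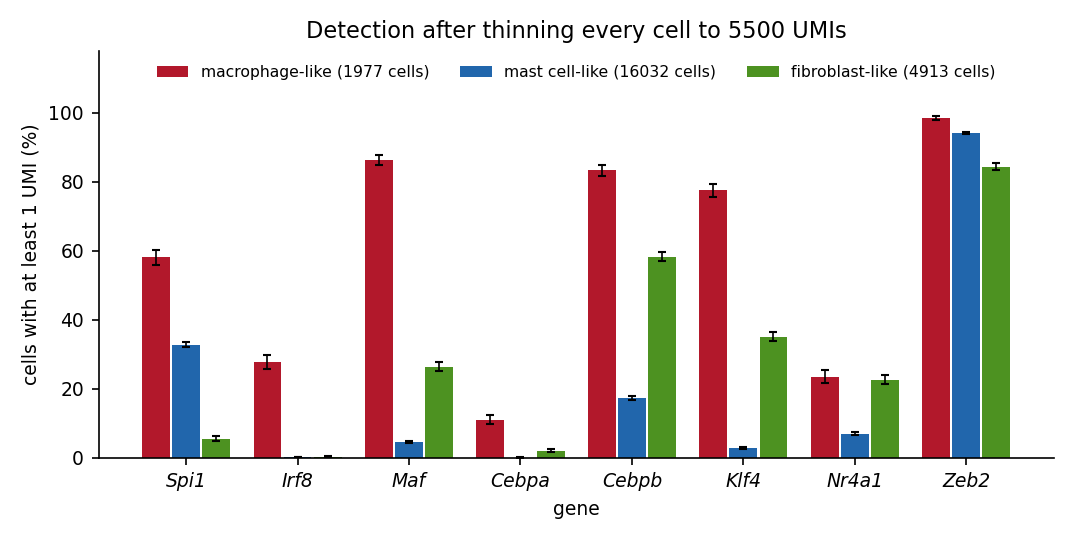
Share of cells (%) with at least 1 UMI of each factor after thinning every cell to 5500 UMIs, with exact Clopper-Pearson 95% intervals. Irf8 and Cebpa are near 0 outside the macrophage-like cells, Nr4a1 has shares of 23.6% and 22.7% in the macrophage-like and the fibroblast-like class, and Zeb2 exceeds 84% in all 3 classes.

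Spi1 (ENSMUSG00000002111, chr2:91082390-91115756, plus strand) encodes PU.1. Its level was 166 CPM (161 to 171) in macrophage-like cells, 68.9 (67.9 to 70.0) in mast cell-like cells and 10.8 (10.3 to 11.3) in fibroblast-like cells. Macrophage-like cells were thus highest, by 2.41-fold (2.33 to 2.49) over mast cell-like cells and by 15.4-fold (14.5 to 16.3) over fibroblast-like cells. PU.1 is known to act at a high level in macrophages and at a lower one in mast cells. The thinned share of cells with a UMI followed the same order, at 58.1%, 32.8% and 5.52%. The 2.41-fold difference is close to the threshold, and it came to a log2 ratio of 0.84 with called doublets kept and 1.52 without macrophage subcluster 2.

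Among fibroblast-like cells, Spi1 and the mast cell markers were both higher with the Cafum than with the Matrigel tag. Those with the Matrigel tag had 4.22 CPM of Spi1 and 3304 of the summed mast cell markers, and those with the Cafum tag had 27.0 and 21059. Per 1000 UMIs of mast cell markers, Spi1 gave 1.28 in both of these groups, 1.36 in fibroblast-like cells with more than 1 tag, 1.51 in those with none, 1.16 in mast cell-like cells and 8.94 in macrophage-like cells. The fibroblast-like ratio to mast cell-like cells, 0.157 (0.149 to 0.164), was higher than that of any mast cell marker (0.125 to 0.145), and the part of mast cell RNA in it was not tested. Taking the mast cell share off raised the log2 ratio of macrophage-like over fibroblast-like cells from 3.94 to 6.92, and that of mast cell-like over fibroblast-like cells from 2.68 to 5.85. The share taken off fibroblast-like cells was the median marker ratio, 0.139 of the mast cell-like level, which left only a small part of their Spi1. Both raised values rest on that remainder, which depends closely on the marker ratio used. With 1 tag per class the 2 log2 ratios were 5.49 and 3.997, and the first was 2.97 with called doublets kept.

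Irf8 (ENSMUSG00000041515, chr8:120736358-120756694, plus strand), the interferon regulatory factor that partners PU.1, was at a level read as background in both mast cell-like and fibroblast-like cells. Macrophage-like cells had 68.8 CPM (65.6 to 72.1), mast cell-like cells 0.329 (0.261 to 0.408) and fibroblast-like cells 0.758 (0.630 to 0.903). The ratio of macrophage-like to mast cell-like cells was 209 (167 to 265), and that to fibroblast-like cells, the highest of the 8, was 90.8 (75.6 to 110). Both lower levels, 0.00478 and 0.0110 of the macrophage-like one, lay within the range of the macrophage markers in these classes. An Irf8 UMI was found in 27.8% of thinned macrophage-like cells, against 26 of 16032 mast cell-like cells (0.162%) and 0.326% of fibroblast-like cells. The 2.31-fold higher level in fibroblast-like than in mast cell-like cells rests on 124 and 81 UMIs, and it fell under 2-fold (a log2 ratio of -0.50 for mast cell-like over fibroblast-like) when each class was limited to cells with its most frequent tag alone. The log2 ratio of macrophage-like over fibroblast-like cells, 6.50, was 7.58 under that limit and 4.98 with called doublets kept.

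Cebpa (ENSMUSG00000034957, chr7:35119293-35121928, plus strand, an intronless gene) encodes C/EBP-alpha, which takes progenitors to the granulocyte and monocyte fate and is switched off on the way to mast cells. It had 21.3 CPM (19.6 to 23.2) in macrophage-like cells, 0.138 (0.0955 to 0.193) in mast cell-like cells and 3.38 (3.10 to 3.67) in fibroblast-like cells. Macrophage-like cells exceeded mast cell-like cells by 155-fold (109 to 226) and fibroblast-like cells by 6.31-fold (5.60 to 7.12). The mast cell-like level, 34 UMIs over 17105 cells, was 0.00647 of the macrophage-like one and within the range of the macrophage markers. In fibroblast-like cells the ratio of 0.158 stood above the range of the macrophage markers there. Cebpa overlaps the antisense gene Gm45091 at its start. Detection was sparse even where Cebpa was highest, with a UMI in 11.1% of thinned macrophage-like cells, 2.10% of fibroblast-like cells and 0.0811% of mast cell-like cells.

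Cebpb (ENSMUSG00000056501, chr2:167688915-167690418, plus strand, also intronless) encodes C/EBP-beta, which drives inflammatory and alternative activation genes in macrophages. Its level was 714 CPM (704 to 724) in macrophage-like, 34.5 (33.7 to 35.2) in mast cell-like and 178 (176 to 180) in fibroblast-like cells. These are ratios of 20.7 (20.2 to 21.2) and 4.003 (3.93 to 4.08) in favour of macrophage-like cells. The mast cell-like level was 0.0483 of the macrophage-like one, above the range of the macrophage markers. Thinned shares were 83.3%, 17.3% and 58.3%. Cebpb lies opposite part of Tmem189, and how the counting used the strand is not given in the sources used here.

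Klf4 (ENSMUSG00000003032, chr4:55527143-55532466, minus strand), a zinc-finger factor of monocyte differentiation, stood at 964 CPM (952 to 976) in macrophage-like cells. Mast cell-like cells had 4.92 (4.65 to 5.21) and fibroblast-like cells 129 (127 to 130). The ratio was 196 (185 to 208) over mast cell-like and 7.497 (7.36 to 7.64) over fibroblast-like cells. The mast cell-like level lay within the range of the macrophage markers, at 0.00510, while the fibroblast-like level, at 0.133, lay above it. A UMI was found in 77.6%, 2.78% and 35.2% of thinned macrophage-like, mast cell-like and fibroblast-like cells. The spread within macrophage-like cells was wide: 22.4% had no UMI, 39.5% had 5 or more, and the highest thinned cell had 62.

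Nr4a1 (ENSMUSG00000023034, chr15:101254269-101274795, plus strand) encodes NUR77, an orphan nuclear receptor needed by patrolling monocytes and induced early after stimulation. Macrophage-like cells had 68.7 CPM (65.5 to 71.9), fibroblast-like cells 57.3 (56.1 to 58.4) and mast cell-like cells 12.8 (12.4 to 13.3). Macrophage-like and fibroblast-like cells differed by 1.20-fold (1.14 to 1.26), beyond counting error but under 2-fold, and the log2 ratio of 0.26 became -0.04 with called doublets kept. Mast cell-like cells were 5.35-fold (5.04 to 5.67) lower than macrophage-like and 4.46-fold (4.28 to 4.64) lower than fibroblast-like cells. A UMI was found in 23.6%, 22.7% and 6.97% of thinned macrophage-like, fibroblast-like and mast cell-like cells. The summed level of 14 immediate early and dissociation genes was 13999 CPM in macrophage-like, 3907 in fibroblast-like and 3409 in mast cell-like cells, and the part of tissue handling in the Nr4a1 and Klf4 levels was not tested.

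Maf (ENSMUSG00000055435, chr8:115682942-115707794, minus strand), a basic leucine zipper factor of resident macrophages, had 680 CPM (670 to 690) in macrophage-like cells. Fibroblast-like cells followed with 70.8 (69.5 to 72.1) and mast cell-like cells with 8.10 (7.75 to 8.46). The ratios were 84.0 (80.2 to 88.0) over mast cell-like and 9.61 (9.39 to 9.84) over fibroblast-like cells. In mast cell-like cells Maf stood at 0.0119 of the macrophage-like level. That is within the range of the macrophage markers there, but above all of them except Cd68 (0.0179). Whether the Maf RNA in mast cell-like cells is background or expression was not tested. In fibroblast-like cells Maf stood at 0.104, above the range of the macrophage markers. Thinned shares were 86.4%, 26.4% and 4.68% in macrophage-like, fibroblast-like and mast cell-like cells. With called doublets kept, the log2 ratio over mast cell-like cells went from 6.39 to 5.80 and that over fibroblast-like cells from 3.26 to 2.67. The antisense gene Gm15655 lies within Maf on the opposite strand.

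Zeb2 (ENSMUSG00000026872, chr2:44983632-45117395, minus strand), a zinc-finger repressor that maintains the identity of tissue macrophages and also acts in mesenchymal cells, was the only member found in most cells of all 3 classes. Its level was 1442 CPM (1427 to 1457) in macrophage-like, 680 (677 to 684) in mast cell-like and 467 (463 to 470) in fibroblast-like cells. The thinned shares were 98.5%, 94.2% and 84.4%. Macrophage-like cells were 2.12-fold (2.10 to 2.14) above mast cell-like and 3.09-fold (3.05 to 3.13) above fibroblast-like cells, and mast cell-like cells were 1.46-fold (1.44 to 1.47) above fibroblast-like cells. The first of these lies at the threshold: it came to a log2 ratio of 0.87 with called doublets kept. With the mast cell share taken off it came to 0.85. That step subtracted 0.312 of the mast cell-like level from the macrophage-like one without rescaling the rest, so it can only lower this ratio. Nothing is read from that value. The antisense gene Zeb2os lies within Zeb2 on the opposite strand.

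**Figure D3:**
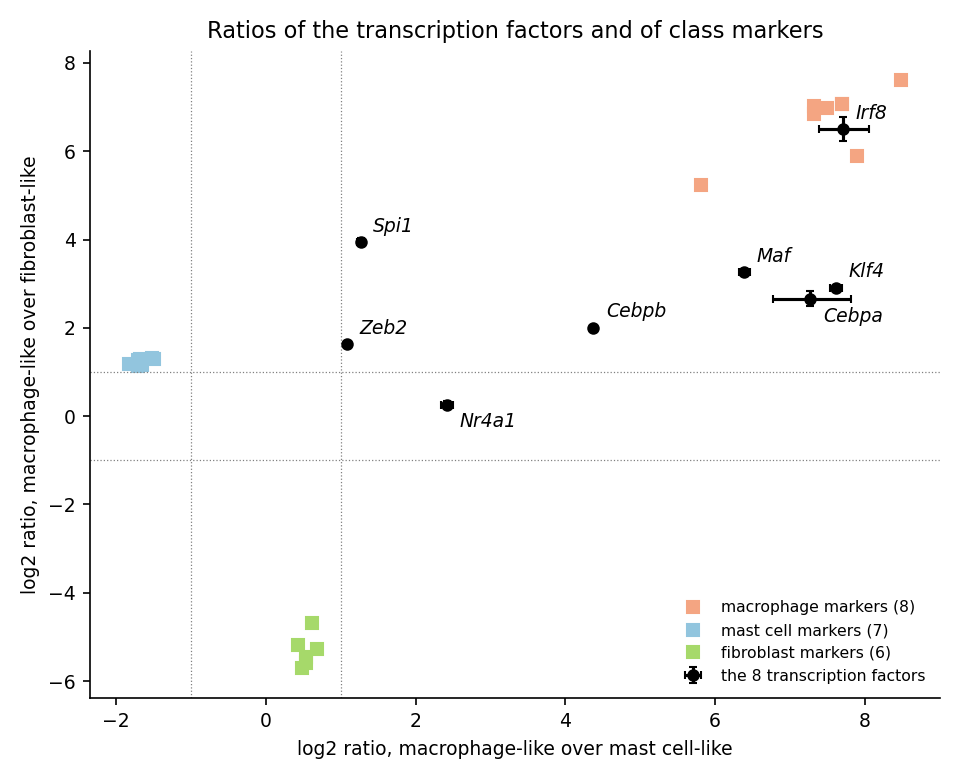
Log2 ratio of macrophage-like over mast cell-like cells (horizontal) and over fibroblast-like cells (vertical) for the 8 factors (black, with 95% intervals) and for the markers of the 3 classes (squares); dotted lines mark 2-fold. Irf8 lies among the macrophage markers on both axes, Klf4, Cebpa and Maf stand apart from them on the vertical one, and Spi1, Zeb2 and Nr4a1 are the 3 members nearest to another class.

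Levels per cell depend on how much RNA a class yields. Counted as UMIs per cell, with no scaling to the total, Zeb2 gave 14.6 per macrophage-like and 14.98 per fibroblast-like cell, and Nr4a1 gave 0.694 and 1.84. On that scale 4 members were at least 2-fold higher in macrophage-like than in fibroblast-like cells, beside 5.83% of all genes, and 1, Nr4a1, was at least 2-fold lower (a log2 ratio of -1.41), beside 76.6%. Cebpa (0.99), Cebpb (0.33) and Zeb2 fell under 2-fold there. Against mast cell-like cells 6 of the 8 were higher on that scale, beside 16.1% of all genes, Spi1 (a log2 ratio of 0.75) and Zeb2 (0.57) falling under 2-fold.

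Within the macrophage-like class, 9 subclusters were found, again without the members. The highest level of a member was not in the same subcluster for all 8. Maf and Zeb2 were highest in subcluster 0 (364 cells), with 1444 CPM (1401 to 1488) and 2480 (2424 to 2538), and Klf4 peaked there too, at 1866 (1816 to 1916). Subcluster 0 was led by Fam71a and held 856 CPM of Lyve1, a marker of resident perivascular macrophages, which was 874 to 969 in subclusters 1, 3 and 7, and 4021 of Mrc1, the mannose receptor, which was 7257 in subcluster 1 and 7012 in subcluster 7.

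Irf8 and Cebpa were highest in subcluster 5 (502 cells, led by Gpnmb, Mmp12 and Mmp13), where Irf8 reached 142 CPM (130 to 154) and Cebpa 34.9 (29.3 to 41.3). Spi1, at 245 (229 to 260.5), and Nr4a1, at 121 (110 to 132), were also above their class levels there. This subcluster had the highest Cd74, the invariant chain of class II antigen presentation, at 13002 CPM, the highest Cx3cr1, the fractalkine receptor, at 269, and the lowest Lyve1, at 75.5. Its Irf8 interval did not overlap that of any other subcluster, while its Cebpa interval overlapped those of subclusters 0, 3, 7 and 8. The immediate early and dissociation genes summed to 19246 CPM here, above the 13999 of the class, and their part was not tested.

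Cebpb had a different pattern, with its highest levels in subcluster 1 (451 cells, led by Raver2, Mctp2 and Thbd) at 1484 CPM (1445 to 1523) and in subcluster 3 (296 cells, led by the interferon-induced Ifit2, Ifit3 and Ifit1) at 1401 (1341 to 1462). Subcluster 0, where Maf and Zeb2 were highest, had 707 (677 to 738.5). Subcluster 3 was also high in Klf4, with 1731 (1665 to 1800), and in Maf, with 1246 (1190 to 1305), but its Zeb2 level of 1196 (1141 to 1254) was under that of the class. The immediate early and dissociation genes summed to 23112 CPM in subcluster 3, 21499 in subcluster 0 and 12915 in subcluster 1, the fibroblast markers to 793 in subcluster 3 against 282 in the class, and their part in these differences was not tested.

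Subcluster 4 (145 cells, led by Dcstamp, Ear2 and Napsa) had the lowest Maf, 272 CPM (251 to 294), and the highest Ccr2, the chemokine receptor of recruited monocytes, 429. Its Spi1, 183 (166 to 201), lay near the class level, and its Nr4a1, 97.7 (85.2 to 111), above it. Its summed mast cell markers were 14001 CPM, and 23.4% of its cells carried more than 1 tag, and their part in its lower Maf and Klf4 (517, 487 to 547) was not tested. Subcluster 6, with 27 cells led by the neutrophil genes S100a8 and S100a9, had the highest Spi1, 314 (248 to 392), the lowest Klf4, 379 (306 to 463), and 2 UMIs of Cebpa, beside 30018 CPM of mast cell markers, whose part was not tested. Subclusters 7 (51 cells, led by Cxcl13) and 8 (34 cells, led by cell cycle genes) had Maf at 1156 (1059 to 1260) and 591 (531 to 656).

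**Figure D4:**
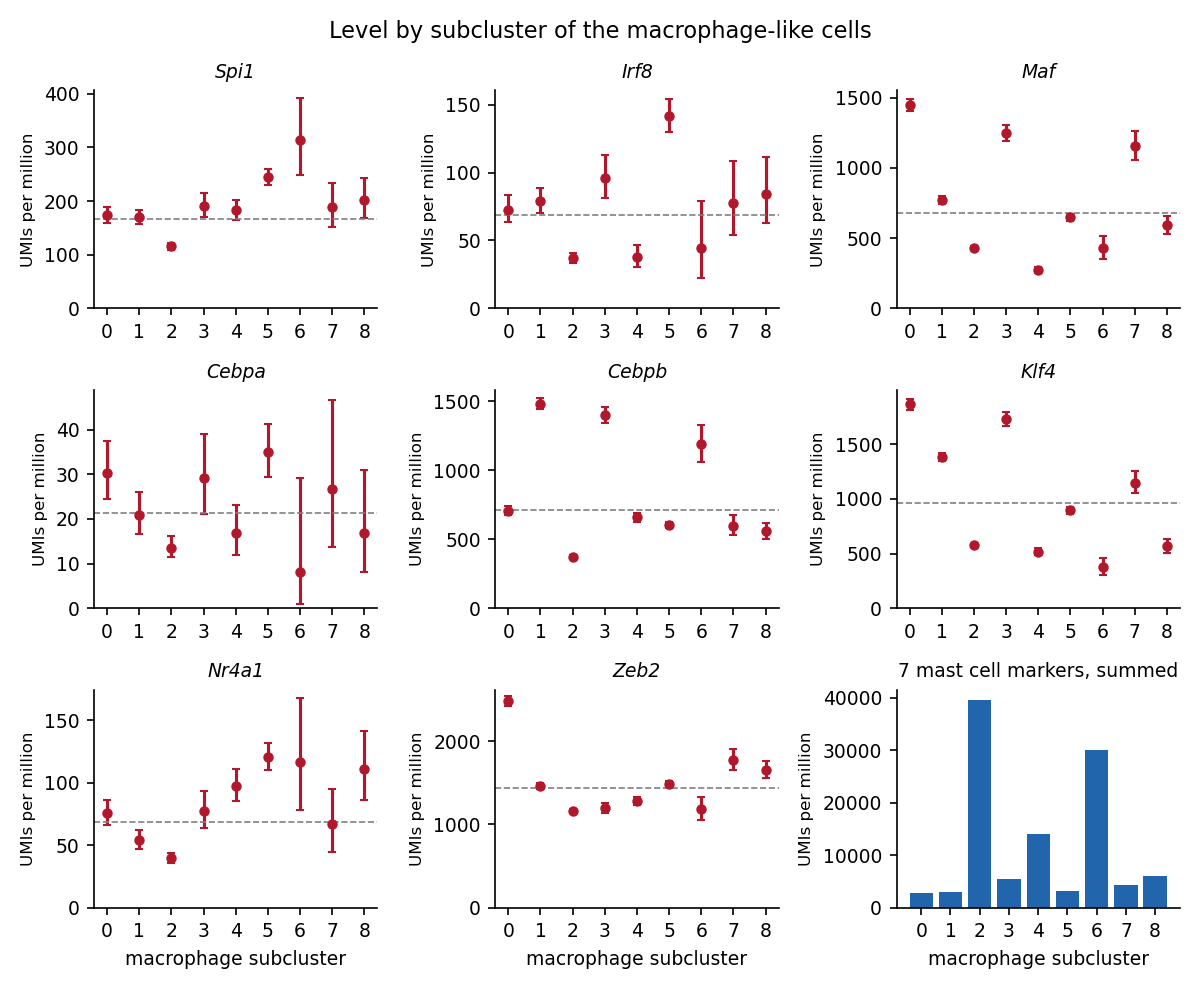
Level in CPM (from 0) of each of the 8 factors in the 9 macrophage subclusters, with exact Poisson 95% intervals; the dashed line is the level of the whole macrophage-like class. The last panel shows the 7 mast cell markers summed. Maf, Klf4 and Zeb2 peak in subcluster 0, Cebpb in subclusters 1 and 3 and Irf8 in subcluster 5, and subcluster 2 has the lowest Cebpb, Nr4a1 and Spi1 and the most mast cell RNA.

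In subcluster 2, where mast cell RNA was highest, every member was below its class level, with Spi1 at 116 CPM (109 to 123), Irf8 at 37.0 (33.3 to 41.0), Klf4 at 577 (562 to 592) and Cebpb at 373 (361 to 386). Leaving it out raised the class levels to 197 for Spi1, 88.7 for Irf8, 838 for Maf, 26.2 for Cebpa, 928 for Cebpb, 1207 for Klf4, 86.8 for Nr4a1 and 1617 for Zeb2. The summed mast cell markers of the class were 5418 CPM without it and 18565 with it. The counts of members past 2-fold were the same without it in all 3 comparisons. The levels by tag showed the like: macrophage-like cells with the Macrophages tag alone (1861 cells) had 1200 CPM of Klf4 and those with more than 1 tag (605 cells) had 584.

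Among the 6 mast cell-like clusters, Zeb2 and Nr4a1 varied more than Spi1. Zeb2 was 951 CPM (941 to 960) in cluster 0, led by Nlgn1 and Ctse, and 947 (938 to 957) in cluster 4, led by Gm4847 and Nrgn, 2 levels whose intervals overlap. It was 506 (499 to 514) in cluster 7, led by mitotic genes such as Cenpa and Ccnb2, and 421 (415 to 428) in cluster 8, led by replication-dependent histone genes. Nr4a1 was likewise lowest in cluster 8, at 5.36 (4.64 to 6.17), and highest in cluster 4, at 23.5 (22.0 to 25.1). Spi1 ranged from 48.1 in cluster 8 to 78.8 in cluster 0. Maf ranged from 3.18 to 11.8, against 680 in macrophage-like cells. In every cluster it lay within the range of the macrophage markers, whose top is Cd68, and was not told apart from background. So the clusters led by mitotic and histone genes held the lowest Zeb2 and Nr4a1, whereas Spi1 in cluster 7, at 74.1 (71.2 to 77.1), lay within the range of the other clusters, from 68.0 to 78.8. Median depth was 16882 UMIs in cluster 7 and 23596 in cluster 8, against 8984 in cluster 0. At the finer resolution, the clusters led by the same mitotic and histone genes had 2414 and 2012 CPM of immediate early and dissociation genes, against 4352 in that led by Ifitm1 and Ctse. The part of depth and of early genes in the lower Zeb2 and Nr4a1 was not tested.

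**Figure D5:**
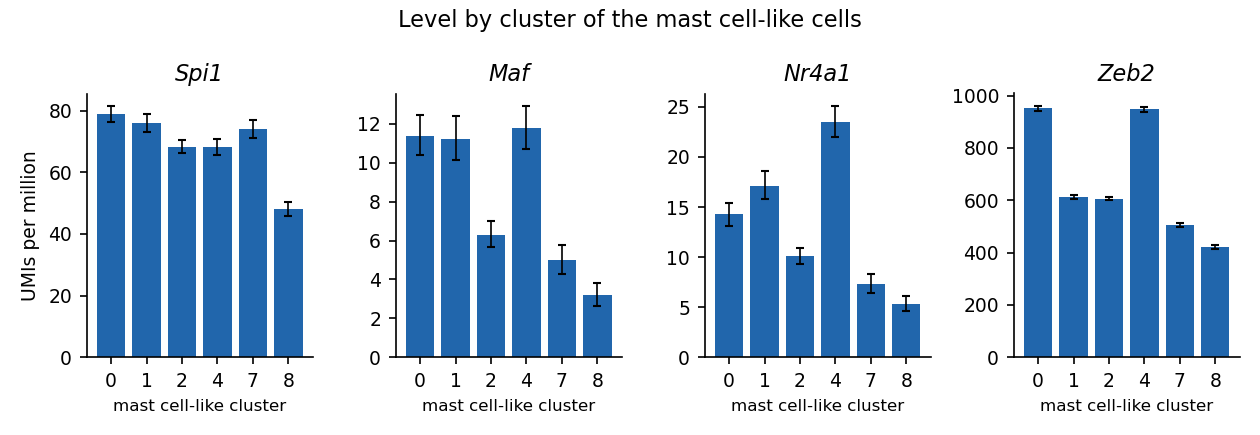
Level in CPM (bars from 0, exact Poisson 95% intervals) of Spi1, Maf, Nr4a1 and Zeb2 in the 6 mast cell-like clusters. Zeb2 and Nr4a1 are lowest in clusters 7 and 8, led by mitotic and histone genes, and Spi1 is lowest in cluster 8. Maf lies within the range of the macrophage markers in all 6, and was not told apart from background.

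The haemoglobin-led cluster 3, with 4215 cells, passed all 7 mast cell markers but stayed unnamed and is set apart from the mast cell-like class. Its leading genes held more erythroid markers (Hbb-bs and Hba-a1) than mast cell markers (Mcpt4). Its Spi1 was 84.6 CPM (81.8 to 87.4), the highest outside macrophage-like cells among clusters of at least 100 cells, and its Zeb2 was 435 (428 to 441). Joining it to the mast cell-like class changed none of the counts of members.

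At a finer resolution the fibroblast-like cells split mainly into 3 clusters, of which the 2 smaller stay unnamed by the marker rule, and the members differed among them. In the cluster led by Cfd and Adipoq, genes of fat cells (528 cells, median depth 10130 UMIs, 11470 CPM of mast cell markers), Cebpa was 7.57 CPM (5.54 to 10.1) and Cebpb 228 (216 to 241). The largest, led by Chl1 and Fmo2 (3552 cells, median depth 31100 UMIs), had Cebpa at 3.28 (2.96 to 3.63) and Cebpb at 188 (185 to 190), and that led by Crabp1 and Dlk1 (935 cells) had 3.06 (2.55 to 3.65) and 146 (142 to 150). The Adipoq cluster was thus highest in both C/EBP factors. Klf4 was lowest in it, at 83.3 (76.2 to 90.9) against 139 (137 to 141) in the largest and 106 (103 to 110) in the Crabp1 cluster. Zeb2 was lowest in the Adipoq cluster too, at 227 (215 to 239), and highest in the largest, at 502 (498 to 507). Nr4a1 was 65.1 (63.6 to 66.6) in the largest and 35.8 (34.0 to 37.7) in the Crabp1 cluster, where immediate early and dissociation genes summed to 4421 and 2479 CPM, and their part was not tested. A further 43 cells, led by Hmcn1 and unnamed although they passed the fibroblast markers, had 488 CPM of Maf (451 to 527), the highest Maf outside macrophage-like cells among the 13 clusters.

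How often 2 members were found in the same cell was set beside what their separate shares give. The ratio has a ceiling where a member is found in most cells: in macrophage-like cells it cannot pass 1.02 for the 7 pairs with Zeb2, 1.16 for the other pairs with Maf, or 1.20 for those of Cebpb with the rest, so that little can be seen there. Over the 28 pairs of members in 1977 thinned macrophage-like cells, the ratio of observed to expected cells with both ran from 0.965 (Cebpa with Cebpb) to 1.20 (Irf8 with Cebpa, 0.939 to 1.51). Spi1 with Irf8 was found in 357 cells where 320 were expected, a ratio of 1.12 (1.004 to 1.24), and Spi1 with Nr4a1 in 312 where 271 were expected, 1.15 (1.03 to 1.29). Of the 28 pairs, these 2 were those whose interval lay above 1 in this class. Spi1, Irf8 and Nr4a1 were all lower in subcluster 2 (116, 37.0 and 39.7 CPM) than in subcluster 5 (245, 142 and 121). The part of such mixing of subclusters in the 2 ratios was not tested. In fibroblast-like cells, Klf4 with Nr4a1 gave 1.17 (1.06 to 1.28) and Cebpb with Nr4a1 1.09 (1.02 to 1.18). In mast cell-like cells the interval of every pair contained 1, and 10 of the 28 pairs had under 5 expected cells.

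Macrophage-like cells with an Irf8 UMI were also set beside those without one, a split chosen after the data were seen. Among cells with the Macrophages tag alone, 428 had one after thinning and 947 had none. Spic, an ETS factor of red pulp macrophages, was 1.99-fold (1.66 to 2.38) and Cx3cr1 1.84-fold (1.59 to 2.12) higher with Irf8, and Batf3, a dendritic cell factor, 1.47-fold (1.20 to 1.80). Of the dendritic cell markers, Cd209a was lower, at 0.860 (0.761 to 0.969), and the intervals of Flt3, Zbtb46, Clec9a and Siglech contained 1. Xcr1 had 3 UMIs in cells with Irf8 and 0 in those without. Of the other members, Spi1 was 1.20-fold (1.07 to 1.33) and Zeb2 1.07-fold (1.03 to 1.11) higher, while the intervals of Maf, Cebpa, Klf4 and Nr4a1 contained 1 and Cebpb was 0.949 (0.902 to 0.999) of the level without. Bhlhe40 was lower, at 0.520 (0.401 to 0.667). The cells with Irf8 held less mast cell RNA, with Cma1 at 0.601 of the level in those without, and more of some early and dissociation genes, with Hspa1a 1.42-fold, Hspa1b 1.42-fold, Fos 1.29-fold and Jun 1.22-fold higher, ratios above those of Spi1 and Zeb2. The part of either in these ratios was not tested. Over all genes with at least 20 UMIs, 149 of 11129 were at least 2-fold higher and 319 at least 2-fold lower with Irf8.

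The genes whose levels ran most like each member's were taken over the 10 clusters of at least 100 cells, by Pearson's r of log2(CPM + 10), among 5180 genes. The 10 points share 1 library, and for most members r is set by the macrophage-like cluster, so it is given as a description. For Spi1 the nearest was Fcgr3, a low-affinity IgG receptor (r = 0.995), with 314, 143 and 22.6 CPM in macrophage-like, mast cell-like and fibroblast-like cells. Among the nearest to Irf8 were Plbd1 and Slamf9, and the nearest were, for Maf, Snx18, Maff and Slc49a4, and for Cebpa, Rab3il1, Pdgfc and Abca9. Cebpb was nearest to Apoe, Skil and Man1c1, Klf4 to Lgmn, Agmo and Igf1, Nr4a1 to Lamp2, Nrip1 and Zswim6, and Zeb2 to Ptpn12, Tut7 and Baz2b. Lamp2, nearest to Nr4a1 with r = 0.987, showed the same near-equal levels in macrophage-like and fibroblast-like cells, 470 and 441, and a lower one in mast cell-like cells, 192.

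Genes that other work links to the members were counted by lists, which were chosen with earlier results of these data known. The MAF list holds genes of a cell type and the IRF8 list linked genes, and neither is a list of known targets. Of 12 genes known to need PU.1 or C/EBP in myeloid cells, 10 were at least 2-fold higher in macrophage-like than in mast cell-like cells and 1, Btk, lower, where 21.8% of all genes were higher and 16.1% lower. Lyz2, lysozyme, was 3535 CPM against 20.5, Csf1r, the receptor for the macrophage growth factor, 526 against 2.21, and Cd14 498 against 2.31, whereas Tyrobp, a signalling adaptor of both lineages, was 1691 against 2360. All 12 genes of MAF-high resident macrophages and all 10 IRF8-linked genes were higher in macrophage-like cells. Among them were Mrc1 (3004 against 8.39), C1qa (2358 against 11.4), Cd74 (5753 against 14.98) and H2-Aa (2943 against 15.3). Csf1r and Cd68 of the PU.1 or C/EBP list, and C1qa, C1qb, C1qc and Mrc1 of the MAF list, are markers that named the class. The counts of these lists are thus not independent of it. The IRF8-linked Clec9a (19 against 4 UMIs) and Xcr1 (8 against 12 UMIs) were at only 0.743 and 0.313 CPM in macrophage-like cells. The exception was the list of 7 genes of non-classical monocytes that need Nr4a1, of which 3 were higher and 1 lower. The 3 were Treml4, Itgal and Pglyrp1, with 38, 149 and 108 UMIs in macrophage-like cells. Of these, 84 UMIs of Pglyrp1 and 13 of Treml4 came from the 27 cells of subcluster 6, led by neutrophil genes. The 145 cells of subcluster 4 gave 70 of the Itgal UMIs. The median log2 ratios of the 4 lists were 5.24 (PU.1 or C/EBP), 7.70 (MAF), 7.07 (IRF8) and 0.71 (Nr4a1), beside -0.12 for all genes compared. Cx3cr1, the highest of these, had 97.4 CPM in macrophage-like and 74.2 in mast cell-like cells, and Spn was lower, 63.9 against 176. Against fibroblast-like cells the counts higher were 11 of 12, 12 of 12, 8 of 9 and 5 of 7 in the same order (PU.1 or C/EBP, MAF, IRF8 and Nr4a1 lists), with medians of 5.47, 7.07, 5.87 and 2.18 beside -0.24 for all genes, of which 17.9% were higher.

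Of 30 further macrophage and monocyte factors, 29 could be compared with mast cell-like cells, and 21 were higher and 2 (Runx3 and Bhlhe40) lower in macrophage-like cells (21.8% and 16.1% of all genes), with a median log2 ratio of 2.80. The 4 with the most UMIs were Klf6 (1209 CPM against 320 in mast cell-like cells), Runx1 (1032 against 1263), Id2 (927 against 1734) and Klf2 (854 against 266), so that Runx1 and Id2, unlike the 8 members, were not higher in macrophage-like than in mast cell-like cells. Of 10 mast cell factors 7 were lower in macrophage-like cells and 1, Lmo2, higher (16.1% and 21.8% of all genes, median log2 ratio -1.45), with Gata2 at 242 against 659 and Ikzf2 at 139 against 412, while the mast cell markers stood there at a median of 0.312 of their mast cell-like level. Of 12 fibroblast factors 11 were lower in macrophage-like than in fibroblast-like cells (27.9% of all genes, median log2 ratio -4.96), Prrx1 at 6.92 against 374 and Zeb1, the relative of Zeb2, at 31.2 against 345, while Tcf4 was 369 against 382.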

How the data were processed

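The unit is counts: the authors deposited UMI counts per gene and barcode from 1 droplet library (3′ chemistry), and per the submitters' processing notes Cell Ranger 7.0.0, STAR, R 4.1.3, Seurat 4.1.1 and build mm10 were used. Barcodes with at least 500 genes, 1000 UMIs and at most 10% mitochondrial UMIs passed (33964), and those Scrublet (in scanpy 1.11.5) called doublets, 4726 of all barcodes, were left out. The called share was 13.6% of barcodes against an expected 27.85%, so doublets may remain among the kept cells. Clustering (2000 variable genes, 30 components, 15 neighbours, Leiden resolution 0.5) left out the members, the listed genes and mitochondrial and ribosomal genes. A cluster was named from markers reaching 50 CPM (UMIs per 1000000) and 4 times the lowest level found in any cluster of 100 or more cells. Counts were summed per class, and a call is 2-fold. Ratios and intervals were checked on simulated counts. The tag library was not analysed here, and some genes are not reported here. Members and lists were chosen with earlier results of these data known. Named genes are the 8 members, the 3 nearest to each, up to 4 of the highest per list, markers, and leading genes of clusters. Lyve1, Ccr2, Lmo2, Clec9a, Xcr1, Treml4, Itgal, Pglyrp1 and the genes of the Irf8 split were named after their values were seen. Alternatives were other filters, doublets kept, resolutions 0.25 and 1, other scalings, single tags and mast cell RNA taken off. Mast cell RNA was taken off by subtracting, from each other class, the median mast cell marker ratio times the mast cell-like level, without rescaling. The alternatives on UMIs per cell, cluster 3, subcluster 2 and the Irf8 split were added after seeing the data. Loci and overlaps come from GENCODE vM21 (GRCm38).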

Additional observations from a re-analysis of the deposited data

How the results depend on the processing

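The 6 counts of members past 2-fold stayed within 1.5 times of the reported count under 82 of 84 alternatives. The other 2 are with UMIs per cell in place of CPM, where 4 members were higher and 1 lower in macrophage-like than in fibroblast-like cells. That setting also turned the log2 ratio of Zeb2 for macrophage-like over fibroblast-like cells to -0.040. Spi1 and Zeb2, the members nearest to 2-fold over mast cell-like cells, dropped under it with doublets kept and with UMIs per cell, each of which left 6 of 8 higher. Of the log2 ratios of single members, 141 moved by less than their counting interval, 170 by more and 1, Zeb2 above, was past 2-fold and changed sign, which Nr4a1 over fibroblast-like cells, under 2-fold as reported, also did with doublets kept (-0.041) and with UMIs per cell (-1.41), as did Zeb2 in mast cell-like over fibroblast-like cells with UMIs per cell (-0.61). The counting intervals are narrow, and the range of settings exceeds them. The macrophage-like class held 1552 cells at a mitochondrial limit of 5% and 3391 with called doublets kept. No paired analysis was possible because there is 1 expression library. A single library gives no error between animals, and mast cell RNA found in the other classes limits what low levels show.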

Other observations

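A small cluster of 52 T cell-like cells, outside the 3 classes, held 27 UMIs of Irf8, a level of 52.5 CPM (34.6 to 76.4), together with 59 of Maf and none of Cebpa, which allows Cebpa a level of up to 5.83 CPM. Igkc, an immunoglobulin gene of B cells, led that cluster beside T cell genes. A cluster of 35 cells led by Cdh19 and Cadm2 had 1007 CPM of Zeb2 (945 to 1072), more than any mast cell-like cluster, beside 105 of Klf4 and 7.13 of Nr4a1. Mast cell-like cells that carried the Macrophages tag alone (83 cells) had no UMI of Irf8 or Cebpa, which allows each up to 3.57 CPM, and their Klf4 was 15.5 CPM (8.23 to 26.4) against 4.42 in those with the Cafum tag. Their summed macrophage markers were 117 and 41.6 CPM, and the part of macrophage RNA in the Klf4 levels was not tested.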
